A study of Brassica oleracea var. italica with 48 samples.

Results

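Broccoli (Brassica oleracea var. italica) answered the loss of potassium differently in its roots and in its leaves, and the features compared here are those measured in both tissues. On day 6 the effect of starvation in roots (starved minus control) was set against the effect in leaves, and the difference of the 2 effects was tested for each feature. The comparison took in every feature whose ID begins with Bo and whose mean reached 1 TPM in the control or the starved roots and also in the control or the starved leaves of that day. TPM counts reads per length of a transcript, scaled to the same total in each library. Of the 60586 features of the deposited table, 21828 met this rule, and all of them were tested. The rule used levels and not the difference itself. Just inside it were Bo3g150030 and Bo5g030500, whose mean in their lower tissue was 1.00 TPM, and just outside were Bo5g023480 and Bo8g091570, at 0.99995 and 0.99994 TPM.

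The 16 libraries of day 6 form 4 groups of 4, lettered a to d, out of 48 libraries taken on days 1, 3 and 6. All plants were wild type and had grown for 6 days on MS plates and for 7 days in hydroponic culture with 2 mM K2SO4, in 16 h of light and 8 h of dark. The control groups are roots and leaves of plants kept in that culture, and the starved groups are roots and leaves of plants moved to a medium without potassium for 6 days. The labels do not say whether the 4 libraries of a group came from separate plants, so p-values measure the spread between these libraries, which may be technical.

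Potassium is taken up by roots through channels and high-affinity transporters, loaded into the xylem and carried to the shoot, and part of it returns to the root in the phloem. Roots therefore meet an empty medium directly, while leaves hold potassium in their vacuoles and draw on it as the supply stops. Expression in roots is known to change towards uptake, and in leaves towards the use of stored potassium and towards stress and hormone responses. No ID of the deposited table could be matched to a named gene (0 of 60586). Transporters, hormone pathways and markers of root or green tissue were therefore not analysed here, the tissue labels were not checked against markers, and each feature goes by its ID alone.

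The reads behind the TPM values numbered 18611145 to 19735733 in the root and 18664588 to 20160203 in the leaf libraries of day 6. In leaves the top 10 features made up 14.9 to 17.9% of the total, and in roots 3.83 to 5.9%. The control roots of day 6 fell into pairs. Libraries a and c differed from each other with a chi-square of 8.61 per degree of freedom and libraries b and d with one of 9.06, against 32.2 to 37 for the other 4 combinations. In the other 3 groups the values ran from 12.7 to 47.2. What set the control roots apart was thus the closeness within a and c and within b and d. Counts of calls in roots and of the difference are given with each pair as well.

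On day 6 the effect of starvation differed between roots and leaves for 2180 of the 21828 features (9.99%; limma, adjusted p under 0.05), against 13.5% of all 31520 features tested. For 1026 of them the effect was more positive in roots (4.70%, against 7.64% of all features), and for 1154 it was more positive in leaves (5.29%, against 5.90%). The difference is given as root effect minus leaf effect on the log2(TPM + 1) scale, which understates changes of features with few TPM. Its median was 1.02 over the 1026 and -1.17 over the 1154, and the called values ran from -5.53 to 3.37. Over all features compared the median was 0.090, and over all features tested 0.095. A difference of at least 1 in either direction was found for 536 of the 1026 and for 721 of the 1154, and one of at least 2 for 65 and 206. With control roots a and c alone 2030 features were called (1062 more positive in roots, 968 in leaves) and the median over all features tested was 0.203. With control roots b and d alone 1639 were called (673 and 966), and that median was -0.023. In a fit of the libraries of day 6 alone the effects more positive in roots were the more frequent (1261 and 1185). Which direction prevailed thus depended on the setting.

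**Figure D1:**
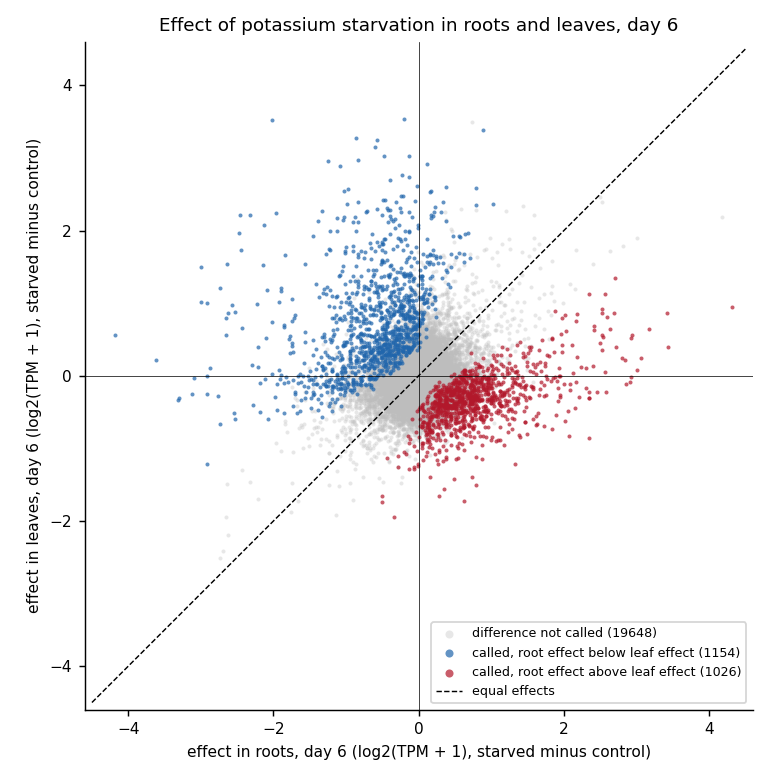
Effect of starvation in roots (x axis) and in leaves (y axis) on day 6, both as starved minus control mean of log2(TPM + 1), for the 21828 features compared. Each point is 1 feature, grey where the difference was not called, red where it was called with the root effect above the leaf effect (1026) and blue where the root effect lay below (1154). The called features fill the lower right and upper left, and few points lie along the dashed line of equal effects away from 0.

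Rise and fall here mean starved against control libraries of day 6, and not a course over time. Within roots 1285 of the 21818 tested there rose and 1286 fell (5.89% each, against 9.00% and 6.60% of all 29422 features tested in roots). This even split depended on the control roots, with 1074 rises and 771 falls against a and c alone and 795 rises and 1064 falls against b and d alone. Within leaves 806 of the 21711 tested there rose and 343 fell (3.71% and 1.58%, against 3.53% and 1.76% of all 25098 features tested in leaves). The leaf counts leaned on single libraries. Leaving out starved leaf a gave 432 rises and 194 falls, and leaving out starved leaf b gave 662 and 215. Without control leaf a there were 906 and 222, without control leaf b 475 and 218, and without control leaf d 533 and 208. The total of 1149 became 626, 693 and 741 without starved a, control b and control d. The lean to rises was smaller in the fit of day 6 alone (668 and 552) and with limma array weights, which give each library its own weight (1885 and 1665). Roots and leaves each share libraries with the difference, so their calls show what the difference consists of and are no separate evidence for it. RNA of a whole tissue cannot tell fewer cells of a type from less RNA per cell.

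A call in one tissue without a call in the other often came without a called difference between the tissues. Of 1161 features that rose in roots and were not called in leaves, the difference itself was called for 644 (55.5%), and of 1088 that fell in roots without a leaf call, for 462 (42.5%). Of 590 that rose in leaves without a root call the difference was called for 355, and of 237 leaf falls for 114. A missing call does not mean equal effects. Where the difference was not called, its median was 0.46 over 517 such root rises and -0.38 over 626 root falls. Over 235 leaf rises it was -0.48, and over 123 leaf falls 0.47. Features not called include the few under the filter of a tissue. Where both tissues were called in the same direction, the difference passed for 15 of 85 features that rose (17.6%) and for 3 of 67 that fell (4.48%), against 9.99% of all features compared. A further 417 features had a called difference with no call in either tissue, out of 18430. In 223 of these the median effects were 0.35 in roots and -0.41 in leaves, and in the other 194 they were -0.32 and 0.49.

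**Figure D2:**
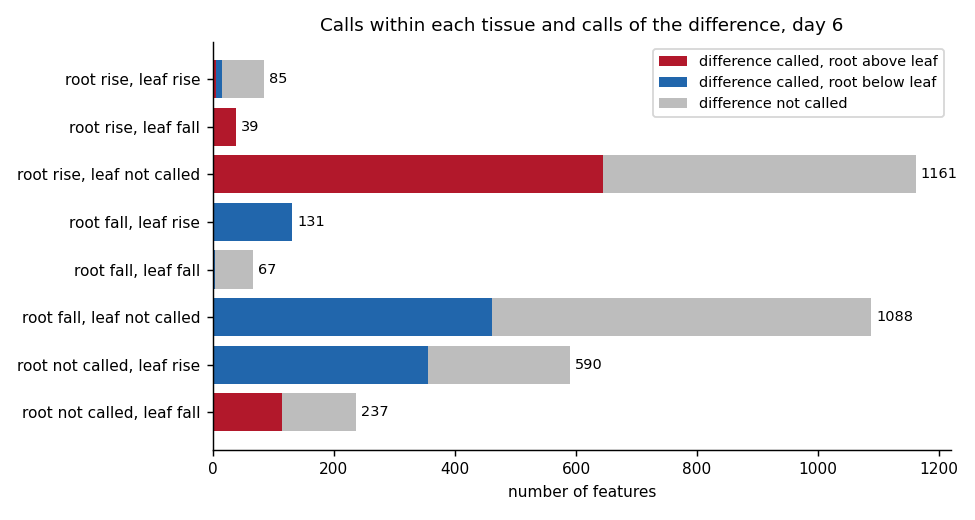
Number of features (x axis) by their call within roots and within leaves on day 6 (y axis), split by the call of the difference, red for a root effect above the leaf effect, blue for one below and grey for no call. The 131 features that fell in roots and rose in leaves and the 39 of the reverse pattern all had a called difference, while 70 of 85 common rises and 64 of 67 common falls had none.

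In 131 features starvation lowered the level in roots and raised it in leaves, and in 39 it did the reverse, each with a call in both tissues. The first pattern was the more frequent under every setting tried, although its excess was small with array weights (312 against 304). Leaf rises by themselves outnumbered leaf falls (806 and 343), while root falls and root rises were even (1286 and 1285). How much of the excess goes back to these unequal leaf counts was not tested. The 2 patterns held 99 and 36 features with control roots a and c alone, and 93 and 26 with b and d alone. The 131 and the 39 became 72 and 21 without starved leaf library a. The 131 became 86 without control leaf library b, and the 39 became 25 without starved leaf library b or c. Median effects of the 131 were -0.90 in roots and 1.18 in leaves, and of the 39 they were 0.87 and -0.82. For 93 of the 131 and for 29 of the 39, the 4 starved libraries lay apart from the 4 controls in both tissues. These features were chosen by calls on the same libraries, which favours such a separation. The share of all features without overlap was not counted.

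Bo7g114390 had the most negative difference of all features compared. Its control root libraries a to d held 114, 122, 124 and 107 TPM and its starved root libraries 30.9, 28.9, 31.3 and 22.3 TPM. In leaves the controls held 0.590, 0.216, 0.861 and 0.633 TPM and the starved libraries 33.9, 9.48, 11.4 and 21.3 TPM. The groups did not overlap in either tissue. Features were named only where the called tissues showed no overlap (for the largest differences, the tissue with the larger effect). Separations in those tissues, here and below, were thus fixed by the choice. From below 1 TPM in every control leaf it came to 19.0 ± 11.2 TPM (SD, n = 4) in starved leaves, against 28.3 ± 4.14 TPM in starved roots. In leaves it met the rule through the starved libraries only, so a rise there was a condition of its entry. The effect was -2.02 in roots (limma, SE 0.20, adjusted p = 2.27e-07) and 3.52 in leaves (limma, SE 0.38, adjusted p = 7.81e-06). The difference of -5.53 had a 95% interval of -6.42 to -4.65 (limma, SE 0.44, adjusted p = 2.13e-12).

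Bo9g133270 had effects of the same directions on day 6. Control roots a to d stood at 87.0, 70.4, 98.6 and 72.5 TPM, and starved roots at 14.051, 15.7, 11.0 and 15.7 TPM. Control leaves stood at 0.588, 0.861, 1.36 and 1.63 TPM, and starved leaves at 13.1, 4.70, 8.34 and 10.5 TPM. No starved library overlapped a control of its tissue, as the choice required. The effects were -2.46 and 2.22, and the difference was -4.68 (limma, SE 0.42, adjusted p = 3.79e-11). Its control leaves averaged 4.51, 9.33 and 1.11 TPM on days 1, 3 and 6, and its starved leaves 3.69, 17.6 and 9.17 TPM (n = 4 each). Both thus fell from day 3 to day 6. In Bo7g114390 control leaves averaged 0.802, 1.91 and 0.575 TPM, and starved leaves climbed from 0.868 over 7.25 to 19.0 TPM.

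Bo9g005670 reached a difference of nearly the same size almost wholly through its fall in roots. It held 88.6, 107, 98.5 and 125 TPM in control roots a to d and 2.52, 5.73, 5.14 and 6.77 TPM in starved ones. Its leaf libraries held 3.52, 0.426, 1.12 and 0.858 TPM as controls and 2.21, 2.56, 1.51 and 3.14 TPM when starved, and these ranges overlap. The root effect was -4.18 (limma, SE 0.26, adjusted p = 4.03e-10), and the leaf effect of 0.56 did not pass (limma, SE 0.27, adjusted p = 0.284). The leaf effect passed without control leaf library a, the highest control, at 0.89 (limma, adjusted p = 0.0194; 0.0149 to 0.684 over all settings). The difference was -4.73 (limma, SE 0.38, adjusted p = 2.72e-12).

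On the other side, Bo6g094710 had the most positive difference among features without overlap in the tissue that moved more. Its control roots a to d held 11.5, 4.83, 8.75 and 11.3 TPM and its starved roots 198, 203, 170 and 192 TPM. Control leaves held 2.42, 0.504, 1.02 and 0.984 TPM and starved leaves 3.32, 2.12, 3.81 and 3.30 TPM. The root libraries are far apart and the leaf libraries overlap. The effect was 4.31 in roots (limma, SE 0.54, adjusted p = 5.07e-06) and 0.94 in leaves (limma, SE 0.24, adjusted p = 0.0197), so both tissues rose. The difference was 3.37 (limma, SE 0.62, adjusted p = 8.29e-05). The leaf rise was lost under some settings, the root rise and the difference under none. Without control leaf library b or d or starved leaf library a, c or d its limma adjusted p was 0.0540 to 0.0951, and over all settings it ran from 0.00221 to 0.248.

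Bo3g153790 stood at like levels in both tissues of control plants and was parted by starvation. Control roots a to d held 5.07, 4.96, 3.04 and 3.22 TPM and control leaves 2.75, 4.05, 5.06 and 3.07 TPM. Starved roots held 23.3, 31.9, 16.3 and 28.2 TPM, all above the controls. Starved leaves held 2.88, 2.18, 0.850 and 0.883 TPM, and library a lay within the range of the control leaves. The root effect was 2.34 (limma, SE 0.26, adjusted p = 8.4e-07). The leaf effect was -0.86, close to the limit of a call (limma, SE 0.25, adjusted p = 0.0483; 0.0238 to 0.165 over other settings, and not passed without control leaf b, c or d or starved leaf b, c or d). The replicate block by day and letter ended this call as well (limma, adjusted p = 0.0749), as did the fit of day 6 alone, no filter, rescaling and voom. The difference was 3.20 (limma, SE 0.37, adjusted p = 1.57e-08).

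The 2 features named for a rise in roots with a fall in leaves were lower in roots than in leaves of control plants. Bo8g090690 held 0.362, 0.487, 0.506 and 0.161 TPM in control roots a to d and 2.60, 2.11, 1.69 and 1.99 TPM in starved roots. It held 104, 65.8, 44.2 and 64.5 TPM in control leaves and 32.3, 26.7, 43.8 and 35.4 TPM in starved leaves. The groups do not overlap in either tissue, though the lowest control leaf and the highest starved leaf lie close together. The control root mean of Bo8g090690 was 0.379 TPM, so in roots it met the rule through the starved libraries only. A rise in roots was thus a condition of its entry, and the difference includes that rise. Its effects were 1.17 and -0.95, and the difference was 2.11 (limma, SE 0.26, adjusted p = 6.52e-08).

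Bo2g007190 held 1.45, 0.815, 2.78 and 1.34 TPM in control roots and 8.05, 3.40, 10.321 and 3.19 TPM in starved roots. Control leaves held 11.7, 13.2, 12.9 and 12.7 TPM and starved leaves 8.78, 5.59, 6.63 and 5.66 TPM. At 6.24 ± 3.53 TPM in roots and 6.66 ± 1.49 TPM in leaves (SD, n = 4 each), starvation brought its tissue means close together. The effects were 1.39 and -0.85, and the difference was 2.24 (limma, SE 0.36, adjusted p = 1.09e-05). Control roots averaged 4, 5.45 and 1.6 TPM on days 1, 3 and 6, and starved roots 7.66, 6.53 and 6.24 TPM (n = 4 each). In leaves the controls averaged 8.36, 14.7 and 12.6 TPM and the starved libraries 7.69, 8.35 and 6.66 TPM. The leaf fall had a limma adjusted p of 0.0158, which became 0.0536 without starved leaf b, 0.0543 without starved leaf d, 0.0569 with the replicate block by day and letter and 0.0926 after rescaling by medians of ratios.

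**Figure D3:**
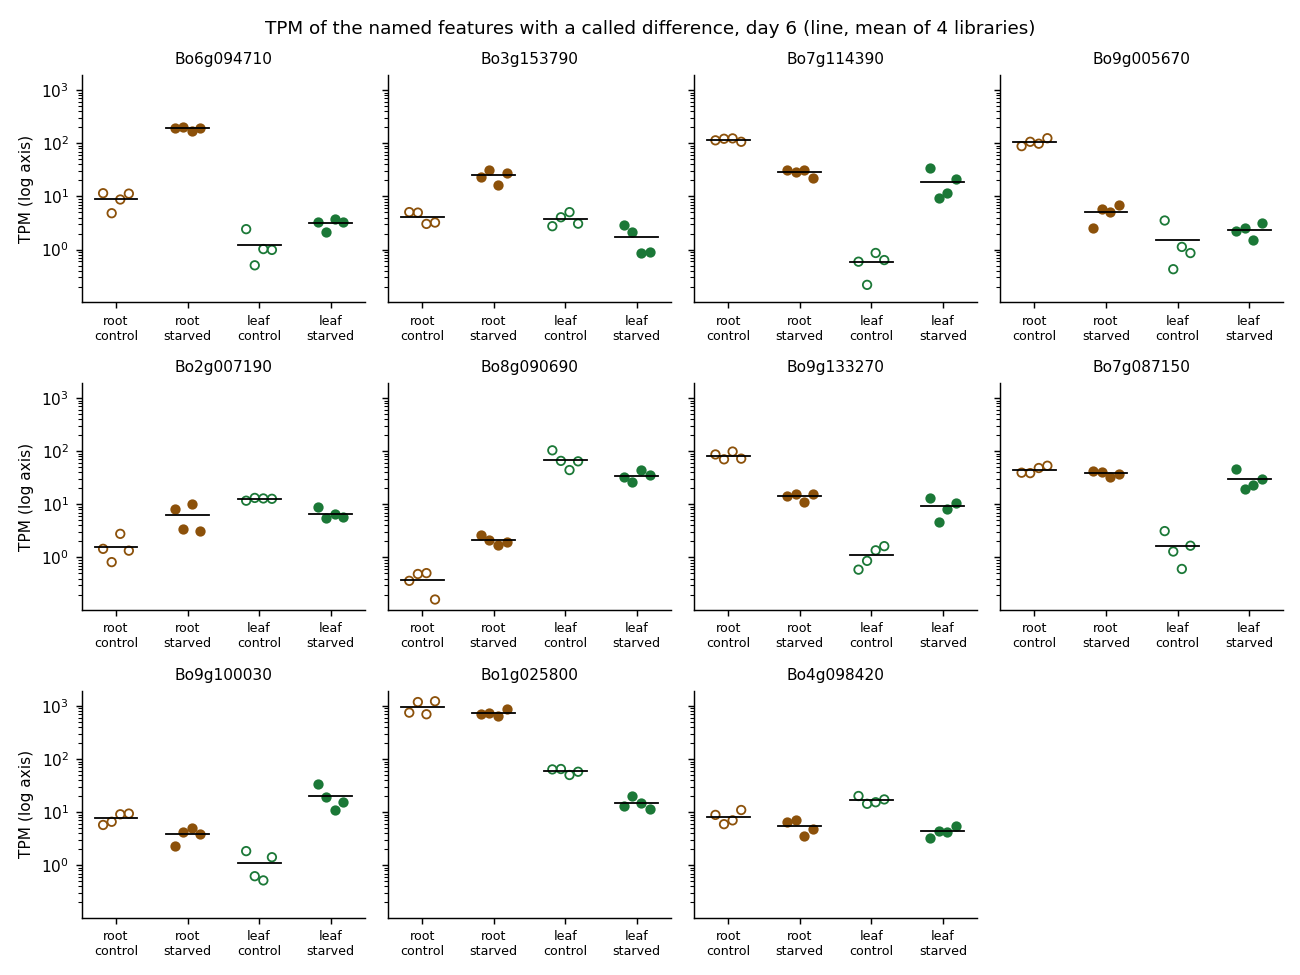
TPM on a log axis (y) in each of the 16 libraries of day 6, by tissue and treatment (x), for the 11 named features with a called difference. Open points are control and filled points starved libraries, brown for roots and green for leaves, and lines are means of 4 libraries. In Bo7g114390 and Bo9g133270 roots fall while leaves rise, and Bo7g087150 and Bo9g100030 move in leaves by far more than in roots.

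Among features that moved in leaves without a root call, rises were the larger group. Bo7g087150 held 3.13, 1.29, 0.606 and 1.66 TPM in control leaves a to d and 45.6, 19.8, 23.1 and 29.9 TPM in starved leaves. Its roots held 39.4, 38.7, 48.3 and 53.3 TPM as controls and 41.9, 41.5, 33.4 and 37.8 TPM when starved. The leaf libraries are far apart and the root ranges overlap, and the starved leaves came near the level of roots. The leaf effect was 3.53, the root effect -0.20 (limma, SE 0.31, adjusted p = 0.810), and the difference -3.73 (limma, SE 0.60, adjusted p = 9.66e-06).

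Bo9g100030 passed the level of roots. Control leaves held 1.85, 0.623, 0.519 and 1.42 TPM and starved leaves 34.406, 19.5, 11.2 and 15.9 TPM. Control roots held 5.75, 6.60, 9.14 and 9.42 TPM and starved roots 2.33, 4.19, 4.95 and 3.90 TPM, so the root libraries do not overlap either. The root effect of -0.86 was not called (limma, SE 0.44, adjusted p = 0.238) except in the fit of day 6 alone (limma, adjusted p = 0.0223; up to 0.497 over all settings). The leaf effect was 3.27 and the difference -4.13 (limma, SE 0.62, adjusted p = 3.01e-06).

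Leaf falls were smaller. Bo1g025800 was an abundant root feature, with 751, 1188, 700 and 1230 TPM in control roots and 704, 744, 640 and 885 TPM in starved roots, which overlap. It went from 64.0, 65.1, 50.2 and 57.8 TPM in control leaves to 12.9, 19.9, 15.0 and 11.7 TPM in starved leaves, with no overlap. The leaf effect was -1.95 (limma, SE 0.39, adjusted p = 0.00361). The difference of 1.60 passed (limma, SE 0.50, adjusted p = 0.0237) but was lost without control root a or c or starved leaf d (limma, adjusted p = 0.0533, 0.0579 and 0.0518) and with control roots b and d alone (1.23, limma, adjusted p = 0.180; 3.3e-05 to 0.180 over all settings).

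Bo4g098420 held 20.2, 14.398, 15.4 and 17.4 TPM in control leaves and 3.22, 4.46, 4.21 and 5.54 TPM in starved leaves, without overlap. Its roots held 8.90, 5.95, 7.02 and 11.0 TPM as controls and 6.56, 7.13, 3.64 and 4.76 TPM when starved, with overlap. The leaf effect was -1.74, the root effect -0.50 (limma, SE 0.22, adjusted p = 0.146), and the difference 1.24 (limma, SE 0.32, adjusted p = 0.00560). Control leaves averaged 4.72, 9.37 and 16.9 TPM on days 1, 3 and 6, and starved leaves 4.49, 5.26 and 4.36 TPM (n = 4 each). The leaf effect thus came with a rise of the controls, while starved leaves stayed near their level of day 1.

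Other features changed alike in both tissues on day 6. Those named here were chosen for large effects of the same sign without a called difference. Their small differences follow from that choice and are no measure for the called ones. Bo6g104090 went from 671, 524, 650 and 421 to 4135, 3610, 3502 and 1855 TPM in roots a to d, and from 1233, 454, 713 and 584 to 3516, 2730, 3253 and 6852 TPM in leaves. Its effects of 2.49 and 2.46 differed by 0.03, with a 95% interval of -0.89 to 0.95 (limma, adjusted p = 0.980). Bo3g058570 rose by 2.52 in roots, from 2.81, 1.28, 0.727 and 1.04 to 15.8, 10.9, 7.39 and 18.7 TPM, and by 2.39 in leaves, from 2.67, 0.861, 3.73 and 2.00 to 15.8, 6.36, 31.5 and 16.9 TPM. Its difference of 0.13 had an interval of -0.94 to 1.20. Bo5g021810 and Bo5g113720 had effects of -2.73 and -2.69 in roots and of -2.51 and -2.41 in leaves, all called, and their differences of -0.22 and -0.28 had intervals of -1.37 to 0.94 and -1.40 to 0.84. Differences of nearly 1 log2 unit lie within each of these intervals. Larger ones, up to 1.20, -1.37 and -1.40, lie within those of Bo3g058570, Bo5g021810 and Bo5g113720.

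The means of days 1 and 3 enter neither the rule nor the contrast of day 6, though their libraries share its fit and thus its estimate of the spread. With the libraries of day 6 alone 2446 differences were called (1261 positive, 1185 negative), of which 1904 were among the 2180. The positive ones were also the more frequent with array weights (3217 and 1977) and without the 5 libraries of low array weight (1996 and 1630). Of all 21828 features compared, fewer had a called difference on the earlier days. There were 517 on day 1 (2.37%, against 4.69% of all features tested, 2.45% positive and 2.24% negative). On day 3 there were 641 (2.94%, against 4.84%, 2.19% positive and 2.65% negative). The 1154 features with a more positive effect in leaves on day 6 had a median difference of -0.54 on day 3, where 1016 (88.0%) lay below 0, against a median of -0.10 and 62.9% over all features compared. This background changed sign after rescaling by medians of ratios (median 0.02, 47.2% below 0) and without the 5 libraries of low array weight (0.08, 34.9%), where 80.4% and 88.6% of the 1154 lay below 0. Of them, 309 were called as negative on day 3 already and 0 as positive. The 1026 features of the other side had a median of 0.36 on day 3, and 905 (88.2%) lay above 0, against 37.1% of all features compared. Of these, 136 were called as positive and 1 as negative.

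On day 1 all features compared were shifted, with a median difference of 0.21 and 72.9% above 0. With libraries rescaled by medians of ratios, the median of all features tested went from 0.18 to -0.014. Relative to it, the groups were apart already. Over the 1154 features the median on day 1 was -0.24 as deposited and -0.46 after rescaling, and over the 1026 it was 0.38 and 0.14, with -0.02 over all features compared after rescaling. The rescaled count on day 1 was 572, of which 164 were positive and 408 negative, in place of 242 and 275. Called with the same sign on days 1, 3 and 6 were 36 positive and 68 negative features. Only 4 features were called on day 6 with a sign opposite to that of a call on another day, and Bo6g094710 was among these, with a difference of -2.26 on day 1 (limma, SE 0.62, adjusted p = 0.0220) and 3.15 on day 3. Its control roots changed as well, with 47.7 ± 19.7, 13.5 ± 18.4 and 9.1 ± 3.11 TPM on days 1, 3 and 6 (SD, n = 4 each). Its starved roots held 9.37 ± 8.73, 114 ± 29.6 and 191 ± 14.5 TPM.

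By tissue, the 1154 features had root medians below 0 on each day, at -0.23, -0.32 and -0.52 on days 1, 3 and 6, while the leaf median went from 0.00 over 0.18 to 0.58. In the 496 of them with a called rise in leaves the leaf medians were 0.04, 0.41 and 1.19. Over the 1026 features the root medians were 0.28, 0.34 and 0.67 and the leaf medians -0.11, -0.03 and -0.32. For all features compared the medians lay between -0.05 and 0.12 in roots and between -0.10 and 0.06 in leaves. The day 6 values come from the libraries that chose these features and are given as a description. The change of the difference from day 1 to day 6 was itself tested and was called for 426 features (1.95%, against 3.06% of all). Of these, 138 were positive (0.632%, against 1.68% of all) and 288 negative (1.32%, against 1.39%, near the share of all). After rescaling these counts were 215 and 256, and with array weights their order turned, with 948 positive and 786 negative. For Bo7g114390 the change was -4.59 (limma, SE 0.62, adjusted p = 1.28e-05), and for Bo9g100030 it was -4.32 (limma, SE 0.87, adjusted p = 0.00192). In Bo9g133270, whose roots were low on day 1 already (10.8 ± 2.68 against 76.2 ± 33.3 TPM in controls, SD, n = 4 each), it was -2.23 (limma, SE 0.59, adjusted p = 0.0240).

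**Figure D4:**
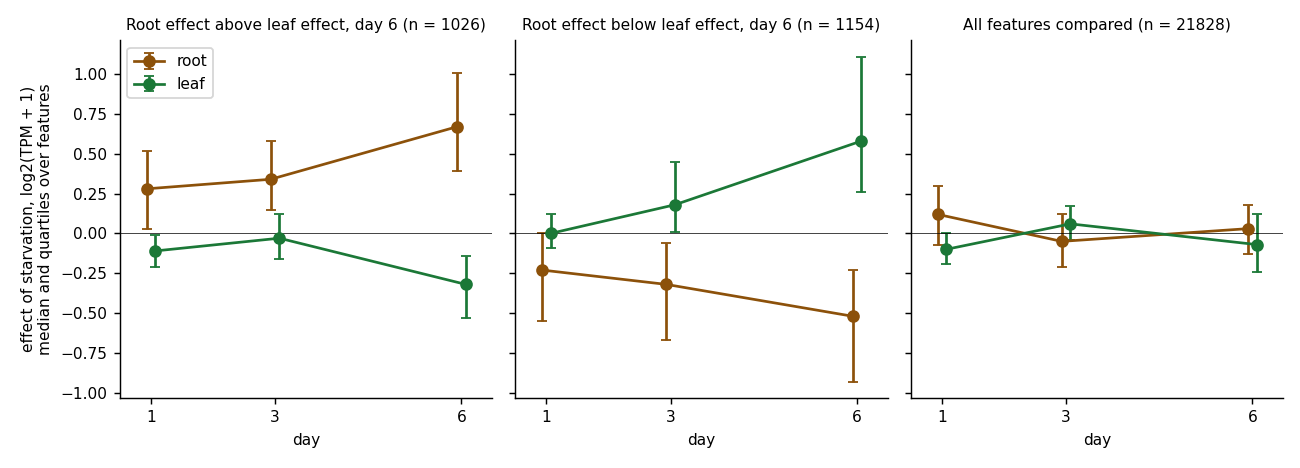
Effect of starvation on log2(TPM + 1) (y axis) in roots and leaves on days 1, 3 and 6 (x axis), as the median with quartiles over the 1026 features with a more positive effect in roots on day 6, the 1154 with a more positive effect in leaves and all 21828 compared. In the middle panel roots stand below 0 from day 1 while the leaf median goes from 0.00 to 0.58, and in the right panel both tissues stay near 0.

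How the differences lay with respect to the tissue in which a feature is more abundant was read from the controls of days 1 and 3, which share no library with day 6. By these, 10297 features (47.2%) were higher in roots by over 1 log2 unit, 2291 (10.5%) were higher in leaves and 9240 lay between. Among features higher in roots 763 (7.41%) had a more positive effect in leaves and 470 (4.56%) a more positive one in roots. Among features higher in leaves the order was turned, with 4.41% and 7.99%. Over the settings tried, the order in features higher in roots was turned only with array weights (1256 and 1458 features), and that in features higher in leaves was turned under none. Leaving out the 3 control libraries of low array weight on those days, the shares were 7.69% and 4.65% in the first class and 4.22% and 7.85% in the second. The rule admits features that reach 1 TPM in starved plants only, and so favours rises where the control level is low. On day 6, 503 features were under 1 TPM in control leaves and 267 in control roots. Over the 20567 features with at least 1 TPM in the controls of days 1 and 3 of both tissues, the shares were 6.08% and 4.45% among features higher in roots and 4.22% and 7.63% among those higher in leaves. At a minimum of 5 TPM (11525 features) they were 5.40% and 3.68%, and 4.92% and 7.30%. The median control level in leaves on day 6 was 5.80 TPM for the features higher in roots and 40.1 TPM for those higher in leaves, and how this level bears on the shares was not tested.

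**Figure D5:**
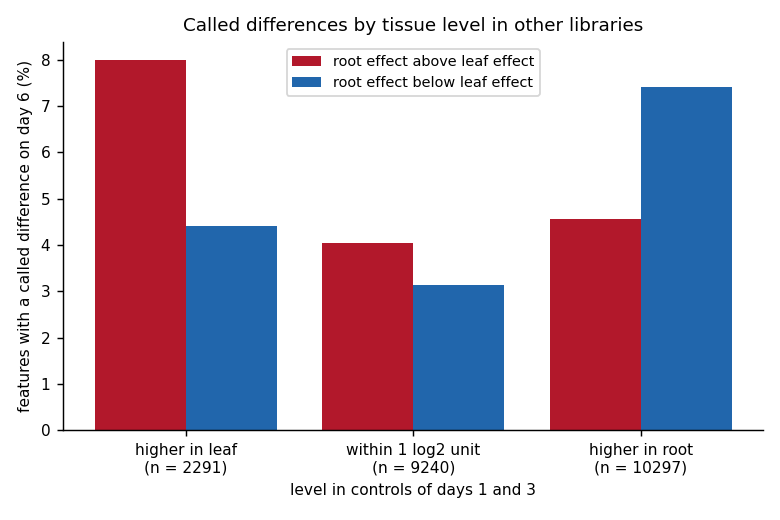
Share of features with a called difference on day 6 (y axis, percent) by their level in controls of days 1 and 3 (x axis), red for a more positive effect in roots and blue for a more positive effect in leaves. Blue is the taller bar among features higher in roots (7.41% against 4.56%, an order turned with array weights) and red among those higher in leaves (7.99% against 4.41%).

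Of the 496 features that rose in leaves with a more positive effect there, 381 (76.8%) were higher in roots in the controls of days 1 and 3, against 47.2% of all features compared. Of the 496, 106 were under 1 TPM in control leaves of day 6 and had entered through the starved leaves. With the minimum of 1 TPM in controls the share was 270 of 365 (74.0%, against 46.2%), and with that of 5 TPM it was 127 of 184 (69.0%, against 45.5%). The median TPM of the 496 was 22.3 in control and 16.7 in starved roots of day 6, and 2.90 in control and 9.08 in starved leaves. In control plants of day 6, leaves stood above roots in 32 of the 496, and in starved plants in 157. The 688 features that rose in roots with a more positive effect there were spread more evenly, with 318 (46.2%) higher in roots and 134 (19.5%) higher in leaves, against 10.5% of all features compared. Their median went from 7.34 to 16.7 TPM in roots and from 5.46 to 4.26 TPM in leaves. Of the 688, 64 were under 1 TPM in control roots of day 6 and had entered through the starved roots. Over all 1154 features with a more positive effect in leaves, the distance between the tissues on day 6 was smaller in starved than in control plants for 894 (77.5%), and the median root minus leaf gap went from 1.90 to 0.62 log2 units. Over the 1026 of the other side it was smaller for 312, and the median gap went from 0.37 to 1.46. These gaps share their libraries with the difference and describe it.

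In roots the 1154 features summed to 93877 ± 6876 TPM in controls and to 58955 ± 3033 TPM when starved, and 65407 ± 1271 and 73077 ± 3790 TPM in leaves (SD, n = 4 each), or 9.39% of the TPM of control roots and 6.54% of that of control leaves. The 1026 features held 33513 ± 1480 and 54938 ± 7071 TPM in roots, and 34120 ± 823 and 27810 ± 1124 TPM in leaves, or 3.35% and 3.41% in the controls. The direction of these sums was fixed by the choice of features. In coding length, taken from the steps of the TPM values, the 1154 had a median of 856 bases and the 1026 one of 972 bases, against 1098 bases for the features not called. Removing each library's trend with coding length gave 2573 calls (1279 positive, 1294 negative), of which 2059 were shared with the 2180.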

How the data were processed

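The authors deposited 1 table of TPM for 48 libraries, which sums to 1000000 in each. Per the submitters' processing notes, FastQC 0.11.9, cutadapt 4.1, STAR 2.7.10a and DESeq2 were used, with no role or order given. The sources used here name no genome build, annotation or counting tool. Per the labels' protocols, column-purified, DNase-treated RNA was read on a DNBseq platform.

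TPM keeps no depth, but each value is a whole number of reads divided by a length. Whole reads were recovered for all 44911 features above 0 in at least 2 libraries (within 0.05 reads, largest deviation 0.000976). The lengths were multiples of 3 for 99.8% of Bo features, hence coding lengths. Recovered reads served for depth, chi-square tests between libraries and voom. Depth on day 6 was 18611145 to 20160203 reads per library, and intervals cover the spread between libraries only.

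The test was limma 3.58.1 (lmFit, eBayes with trend, R 4.3.3) on log2(TPM + 1). The difference was fitted over all 48 libraries with 1 term per group, and each tissue's effect over its own 24. A feature was tested where 4 or more libraries of the fit held 1 TPM or more, and p-values were adjusted by Benjamini-Hochberg over all of them, at a threshold of 0.05. The procedure was checked on simulated data. Features and lists were chosen with earlier results of these data known. Named features are, by rule, up to 2 per direction of 4 kinds, without overlap of starved and control libraries in the called tissues (for the first kind, in the tissue with the larger effect): largest differences, opposite effects, leaf effects without a root call, and common effects without a called difference. Alternatives are given in the closing section. Same-lettered libraries were not taken as pairs. Tables were handled in Python 3.11.15 with numpy 2.4.6, pandas 2.3.3 and matplotlib 3.10.9.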

Additional observations from a re-analysis of the deposited data

Results flagged for a closer look

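The test of the difference between the tissues marked 2180 features on day 6, and the test of its change from day 1 to day 6 marked 426. Among the named features the difference (root minus leaf, log2) was 3.37 for Bo6g094710, 3.20 for Bo3g153790, 2.24 for Bo2g007190, 2.11 for Bo8g090690, 1.60 for Bo1g025800 and 1.24 for Bo4g098420. It was -5.53 for Bo7g114390, -4.73 for Bo9g005670, -4.68 for Bo9g133270, -4.13 for Bo9g100030 and -3.73 for Bo7g087150.

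The change of that difference from day 1 to day 6 was 5.63 for Bo6g094710, which turned from negative to positive, 2.52 for Bo3g153790 and 1.71 for Bo8g090690. It was -4.59 for Bo7g114390, -4.32 for Bo9g100030, -3.12 for Bo7g087150, -2.68 for Bo9g005670 and -2.23 for Bo9g133270. For Bo6g094710 the control roots changed too, from a mean of 47.7 TPM on day 1 to 9.1 TPM on day 6.

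A single library stood far from the other 3 of its group in 2 of 68 groups checked, and chance alone marks about 1 in 20. Bo5g021810 held 4.01 TPM in control leaf library b, against 10.5 to 11.0 TPM in the other 3. Bo5g113720 held 1.27 TPM in starved leaf library b, against 0.400 to 0.502 TPM.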

How the results depend on the processing

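The 2180 differences of day 6 ranged from 1814 to 2246 when each of the 16 libraries was left out. Over the same settings the root calls ranged from 1960 to 2571, the leaf calls from 626 to 1149, the differences of day 1 from 477 to 522 and of day 3 from 625 to 678, the changes from day 1 to day 6 from 342 to 569, the root falls with a leaf rise from 72 to 149 and the reverse from 21 to 40. With a change of at least 1 log2 unit required, 1257 differences, 736 root and 490 leaf calls remained in number, with 269 differences on day 1, 417 on day 3, and 40 and 1 features of opposite direction. Limma array weights gave 5194 differences (3217 positive, 1977 negative), 5244 root and 3550 leaf calls, 1613 differences on day 1, 1988 on day 3, 1734 changes between days and 312 and 304 opposite features. Without the 5 libraries of low array weight, none of day 6, there were 3626 differences (1996 and 1630), 2456 leaf calls and 209 and 138 opposite features. A minimum of 5 TPM kept 12410 features, with 1215 differences, 1419 root and 718 leaf calls, 280 differences on day 1, 336 on day 3, 247 changes and 77 and 17 opposite features. A pseudocount of 0.1 gave 304 differences on day 1, rescaling 1940 leaf calls, removal of the length trend 69 features that rose in roots and fell in leaves, and voom 217 differences on day 1, 380 on day 3 and 246 changes, while its 2180 differences of day 6 shared 1840 with the reported ones. The cause was not tested. No called direction turned among the named features. Effects that were not called crossed 0 over the settings, with the root effect of Bo1g025800 from -0.71 to 0.03 and the differences of Bo5g021810 from -0.66 to 0.74, Bo5g113720 from -0.60 to 0.10, Bo3g058570 from -0.25 to 0.46 and Bo6g104090 from -0.24 to 0.31.

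Same-lettered libraries did not deviate together in all pairs of day 6 (correlations from -0.193 to 0.572 between treatments and from -0.141 to 0.360 between tissues). The replicate block by day and letter gave 2198 differences, 2092 of them shared with the 2180, and the block by day, treatment and letter gave 2136, with 1977 shared. The settings with root controls a and c or b and d alone, without 3 control libraries, and with a minimum in the controls were chosen after seeing the data.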

Other observations

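Features with consecutive IDs at times had the same kind of difference. Whether consecutive IDs are neighbours in the genome was not checked. Of 706 features with a more positive effect in roots and a compared feature next to them by ID, 89 (12.6%) had a neighbour of the same kind, against 6.17% of all 15257 features with a compared neighbour. For a more positive effect in leaves the numbers were 85 of 786 (10.8%) and 6.71%. The sources used here do not say how reads matching several similar features were counted.

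The longest run was of 4 features, Bo4g190870 to Bo4g190900, and was chosen after its values were seen. Bo4g190870 fell in roots from 28.0 to 8.83 TPM and rose in leaves from 1.8 to 5.65 TPM, with a difference of -3.10 (limma, adjusted p = 3.76e-07). Bo4g190880 went from 20.8 to 43.4 TPM in leaves and stood at 238 and 247 TPM in roots, with a difference of -1.0 (limma, adjusted p = 0.0169). Bo4g190890 fell in roots from 545 to 281 TPM and stood at 80.8 and 101 TPM in leaves, with a difference of -1.26 (limma, adjusted p = 6.65e-06). Bo4g190900 rose in leaves from 98.9 to 144 TPM and stood at 502 and 498 TPM in roots, with a difference of -0.57 (limma, adjusted p = 0.0342). All 4 differences are thus negative, but they rest on roots, on leaves or on both.

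In a run of 3, also chosen after its values were seen, Bo1g051140 rose in roots from 7.16 to 48 TPM and stood at 3.78 and 3.91 TPM in leaves, a difference of 2.52 (limma, adjusted p = 1.63e-10).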
